A study of Mus musculus with 6 samples.

Results

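Interferon-stimulated genes are genes that cells switch on when an interferon binds its receptor. The 36 listed here are nucleic acid sensors, antiviral effectors, immunity-related GTPases, transcription factors of the response and its regulators, and they were followed in T cells with and without the inhibitory receptor CTLA-4. A member was measured by the probe sets that the array annotation assigns to its symbol alone, and, where there were several, by the one whose mean over the 6 arrays was highest. In all, 34 of the 36 genes had such a probe set, out of 18193 genes named on the array, and all 34 were bright enough to be tested. Isg15 was read only by a probe set shared with another gene, and no probe set was annotated to Ifi44, so both were not analysed here.

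Expression was measured on Affymetrix arrays in 2 groups of 3 arrays each. The CTLA-4 KO cells carried the 5C.C7 transgenic T cell receptor, which recognises a peptide of moth cytochrome c (MCC), lacked RAG2, bore the CD45.1 marker and were knocked out for CTLA-4. The wild type (WT) cells shared the 5C.C7 receptor, the RAG2 deficiency and CD45.1. B10.A mice received cells of either genotype, were immunized with MCC peptide and LPS, and on day 4 the transferred cells were sorted. LPS itself can evoke interferon in the host, and no array of resting or unimmunized cells is part of the series, so values show a difference between genotypes and not an induction. The titles call the arrays biological replicates without saying that each came from a separate animal, so the p-values describe the scatter of these 3 arrays per group, which may be partly technical.

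Type I interferons signal through the IFNAR receptor and the kinases JAK1 and TYK2 to a transcription factor complex that contains STAT2 and IRF9 and binds the interferon-stimulated response element (ISRE) in promoters. Interferon gamma acts through its own receptor, JAK1 and JAK2 on promoters with a gamma-activated site (GAS), and it is the main inducer of the immunity-related GTPases. In T cells these signals can restrain or promote expansion, depending on when they arrive relative to the antigen receptor signal.

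Promoter windows are shown for the 6 members that passed a test between genotypes, given further on, and for which a window was held. Iigp1 and Usp18 also passed but had no window. The same motif was found in the windows of Ifih1 and Ifit3, which were lower in CTLA-4 KO cells, and of Oas3, which was higher. RefSeq windows (GRCm38.p6), from 250 bases before to 50 bases after a gene's start, were held for 24 of the 34 members. They were searched for the ISRE core, GAAA and GAAA with any 2 bases between them, on both strands and for the GAS letters TTCNNNGAA, which read the same on both strands. The ISRE core was in 12 of 30 member windows (11 of 24 genes), against 3.44% of all 32851 windows. The GAS letters were in 8 of the 30 windows, against 8.3% of all windows. No match to one motif overlapped a match to the other in the windows shown. Each sequence runs 5′ to 3′ along the strand of its gene, and capitals mark matches to either motif.
Ifih1 (chr2:62646206-62646505, minus strand): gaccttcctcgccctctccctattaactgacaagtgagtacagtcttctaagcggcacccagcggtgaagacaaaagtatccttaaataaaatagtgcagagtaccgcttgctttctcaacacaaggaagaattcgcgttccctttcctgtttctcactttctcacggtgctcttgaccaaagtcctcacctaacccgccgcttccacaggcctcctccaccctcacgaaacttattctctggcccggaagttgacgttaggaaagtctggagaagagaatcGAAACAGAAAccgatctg
Oas3 (chr5:120777610-120777909, minus strand): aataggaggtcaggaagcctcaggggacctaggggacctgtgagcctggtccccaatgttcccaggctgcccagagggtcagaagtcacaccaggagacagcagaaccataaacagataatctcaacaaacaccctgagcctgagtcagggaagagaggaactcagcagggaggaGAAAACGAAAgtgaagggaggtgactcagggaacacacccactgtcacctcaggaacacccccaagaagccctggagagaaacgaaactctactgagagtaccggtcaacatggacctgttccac
Ifit3 (chr19:34583279-34583578, plus strand): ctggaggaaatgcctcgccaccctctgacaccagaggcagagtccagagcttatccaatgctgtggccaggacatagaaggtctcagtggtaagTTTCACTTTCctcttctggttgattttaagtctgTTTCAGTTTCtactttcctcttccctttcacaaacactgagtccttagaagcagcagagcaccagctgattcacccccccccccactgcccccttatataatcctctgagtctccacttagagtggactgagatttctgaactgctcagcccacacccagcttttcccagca
Ifit2 (chr19:34550444-34550743, plus strand): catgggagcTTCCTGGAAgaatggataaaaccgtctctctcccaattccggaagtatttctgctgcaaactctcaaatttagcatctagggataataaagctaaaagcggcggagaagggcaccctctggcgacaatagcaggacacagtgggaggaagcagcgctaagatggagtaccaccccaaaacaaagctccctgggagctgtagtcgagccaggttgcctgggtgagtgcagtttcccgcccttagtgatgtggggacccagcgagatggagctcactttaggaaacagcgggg
Samhd1 (chr2:157135047-157135346, minus strand): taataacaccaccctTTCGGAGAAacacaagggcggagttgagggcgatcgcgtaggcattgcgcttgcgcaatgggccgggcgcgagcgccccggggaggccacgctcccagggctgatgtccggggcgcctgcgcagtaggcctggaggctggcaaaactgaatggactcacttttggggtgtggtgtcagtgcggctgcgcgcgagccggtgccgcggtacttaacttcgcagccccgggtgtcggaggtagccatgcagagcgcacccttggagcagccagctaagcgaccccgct
Xaf1 (chr11:72301379-72301678, plus strand): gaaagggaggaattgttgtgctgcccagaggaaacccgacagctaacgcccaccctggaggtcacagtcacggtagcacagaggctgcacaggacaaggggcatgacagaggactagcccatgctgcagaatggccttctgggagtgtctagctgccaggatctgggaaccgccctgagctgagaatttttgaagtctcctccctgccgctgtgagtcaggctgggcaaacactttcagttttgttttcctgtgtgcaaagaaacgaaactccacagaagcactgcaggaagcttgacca

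The ISRE core match of Ifih1 lay at bases 33 to 42 after the start, that of Oas3 at −75 to −66, and the pair of Ifit3 at −156 to −147 and −122 to −113 on the opposite strand. The other window of Ifit2 and the window of Xaf1 held no match to these letters. The median log2 difference was −0.12 over the 11 members with an ISRE core in a window and −0.11 over the 13 without, which is a gap of little size beside the range of the members. A match describes the sequence and is not evidence of binding.

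The cells carried T cell markers: Cd3e lay between 4243 and 4664 in intensity in CTLA-4 KO and between 3632 and 4439 in WT, and Cd4 between 5012 and 5934 in CTLA-4 KO and between 4940 and 5412 in WT. Intensities are the linear MAS5 signal of a probe set, and the trimmed mean of every array was 500.003. Ctla4, the targeted gene, had 812, 791 and 784 in CTLA-4 KO cells, against 5332, 4787 and 4587 in WT cells (limma adjusted p = 1.53e-06). Xist marked the replicate 2 arrays as female (12599 in CTLA-4 KO and 14608 in WT), while on the remaining 4 arrays it reached 107. The 5′ to 3′ signal ratio of Actb, a sign of RNA integrity, was 0.567, 0.691 and 0.544 in CTLA-4 KO and 0.418, 0.41 and 0.584 in WT. No member lies on chromosome 1, which holds Ctla4.

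Most interferon-stimulated genes were slightly lower in CTLA-4 KO cells, and few differences passed the test. The log2 difference, CTLA-4 KO minus WT on the log2(intensity + 16) scale, was negative for 27 of 34 members and had a median of −0.15, beside 49.7% of all 11988 tested genes negative and a median of 0.0021. It spanned −0.77 for Iigp1 to 0.61 for Oas3. In the limma fit across all kept probe sets, 1 member fell and none rose at an adjusted p of 0.05, beside 0.517% of tested genes that fell and 1.23% that rose, and at an unadjusted p of 0.05 there were 10 lower members and 1 higher, beside 7.11% and 9.43% of genes. The count of 1 rests on Ifih1 alone. Replicate numbers were taken to pair the arrays, and with the number as a block 7 members fell and 1 rose, beside 3.45% of genes that fell and 5.46% that rose.

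Without any model, all 3 CTLA-4 KO values lay below all 3 WT values for 10 members, beside 10.5% of tested genes, and above them for 1 member, beside 12.2%. Those 10 were Irf1, Ifih1, Ifit1, Ifit2, Ifit3, Oas2, Oasl1, Samhd1, Usp18 and Trim30a, and the 1 above was Oas3. In every replicate pair, 17 members were lower, beside 22.4% of genes, and 2 (Oas3 and Bst2) were higher, beside 23.3%. The negative share of the members was thus above the background of all genes and the positive share below it, by counts that carry no test of the list. When each array was centred on its own median, 22 of 34 members were negative, the member median was −0.057 and the median of all genes 0.091, and of the 298 probe sets called there 81.9% were higher, against 62.9% of 345 without centring.

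**Figure D1:**
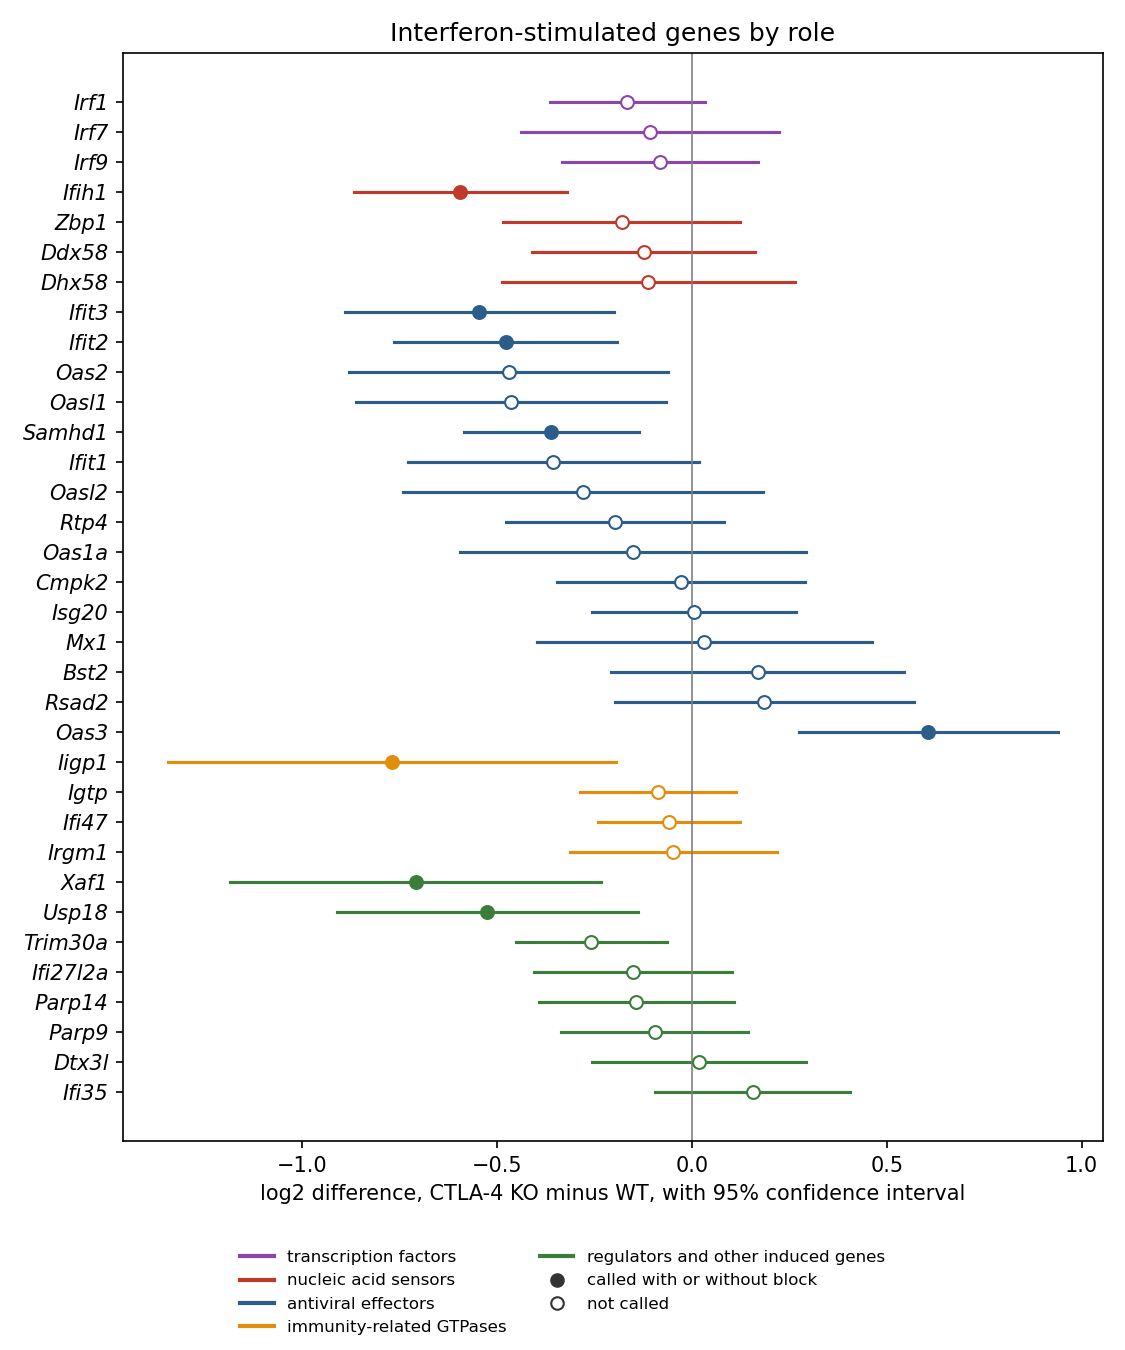
Log2 difference (CTLA-4 KO minus WT) of the 34 measured members with 95% confidence intervals from the limma fit without a block, grouped by role and ordered within each role. Points are filled where the adjusted p was at most 0.05 with or without the replicate block, and 27 of the 34 points lie left of 0.

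Among the nucleic acid sensors, Ifih1 fell in CTLA-4 KO cells and the other 3 did not pass the test. Ifih1 encodes MDA5, the cytosolic sensor of long double-stranded RNA. It had 4432, 3959 and 3407 in CTLA-4 KO cells, against 6534, 6086 and 5190 in WT cells. Every CTLA-4 KO array was below every WT array, and the mean was 3933 ± 513 in CTLA-4 KO and 5937 ± 685 in WT (SD, n = 3 arrays), or 66.2% of what WT cells had. Its log2 difference came to −0.59 ± 0.12 (SE; limma adjusted p = 0.0493; 0.00141 once replicate number was a block), and −0.56, −0.62 and −0.60 in pairs 1, 2 and 3. The adjusted p of Ifih1 was just inside the threshold, and no fit that left out 1 array called it: its adjusted p was then 0.0501, 0.183 and 0.141 as CTLA-4 KO replicate 1, 2 or 3 was dropped, and 0.126, 0.111 and 0.0627 as WT replicate 1, 2 or 3 was. Given a term for the Actb ratio, its difference was −0.49 (limma adjusted p = 0.389), and over all alternatives its adjusted p ran from 0.00141 to 0.389.

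The sensors other than Ifih1 differed little. Ddx58, which encodes RIG-I, the sensor of short RNA with a 5′ triphosphate, had 1856, 1982 and 1780 in CTLA-4 KO and 1991, 2416 and 1765 in WT, and the groups overlapped. Its log2 difference was −0.12, with a 95% interval of −0.41 to 0.16. Dhx58, which encodes LGP2, a relative of both that tunes their signalling, had a mean of 275 ± 42.2 in CTLA-4 KO and 297 ± 30.9 in WT, with an interval of −0.49 to 0.26. Zbp1, a sensor of Z-form nucleic acid, had 516 ± 59.6 in CTLA-4 KO and 585 ± 17.2 in WT (interval −0.48 to 0.12). All 3 intervals include 0. The difference between Ifih1 and its relatives was not tested.

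Of the 15 measured antiviral effectors 10 had a negative and 5 a positive difference, with a median of −0.20. None passed the limma test without the block, where 5 were lower and 1 higher at an unadjusted p of 0.05, beside 7.11% and 9.43% of all tested genes. With the block 3 fell and 1 rose, beside 3.45% and 5.46% of genes. The IFIT genes, whose products bind foreign RNA and block its translation, lie next to each other on chromosome 19 and all had negative differences. Ifit2 had 936, 1046 and 799 in CTLA-4 KO cells, against 1325, 1317 and 1226 in WT cells, with no overlap. Its log2 difference was −0.48 ± 0.13 (limma adjusted p = 0.108; 0.015 once replicate number was a block). Ifit3 had 292, 379 and 316 in CTLA-4 KO cells, against 436, 528 and 495 in WT cells, with no overlap. Its difference was −0.55 ± 0.16 (limma adjusted p = 0.124; 0.0216 once replicate number was a block). Ifit1 had 1021, 1029 and 900 in CTLA-4 KO cells, against 1061, 1666 and 1130 in WT cells, and passed in neither fit (limma adjusted p = 0.346 and 0.0965). The WT values of Ifit1 were uneven, with replicate 2 well above the other WT arrays.

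The oligoadenylate synthetases make the messenger that activates RNase L, and the related Oasl genes belong to the same family. Their differences had both signs, only that of Oas3 passed at an adjusted p of 0.05, with the block, and the differences between them were not tested. Oas3 was the highest of all members in its difference: it had 583, 685 and 592 in CTLA-4 KO cells, against 420, 444 and 343 in WT cells, with all CTLA-4 KO arrays above all WT arrays. Its log2 difference was 0.61 ± 0.15 (limma adjusted p = 0.083; 0.0112 once replicate number was a block), or 154% of the WT mean. Oas2, its neighbour on chromosome 5, went the other way, with 244, 185 and 221 in CTLA-4 KO cells, against 371, 262 and 289 in WT cells (log2 difference −0.47, limma adjusted p = 0.253, and 0.0748 with the block). Oasl1, which in mice limits translation of Irf7, had 155, 187 and 154 in CTLA-4 KO cells, against 209, 225 and 270 in WT cells (difference −0.46, limma adjusted p = 0.246). Neither Oas2 nor Oasl1 overlapped between genotypes, and neither passed the test. Oas1a and Oasl2 overlapped, with differences of −0.15 and −0.28. The WT values of Oasl2 ran from 330 to 615, while its CTLA-4 KO values ran from 341 to 367.

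Samhd1, which removes the nucleotides that reverse transcription needs, was the brightest effector probe set and had 6871, 5947 and 5506 in CTLA-4 KO cells, against 7730, 8240 and 7490 in WT cells. The groups did not overlap, and the log2 difference was −0.36 ± 0.10 (limma adjusted p = 0.118; 0.0289 once replicate number was a block). The effectors Rtp4, Cmpk2, Mx1, Isg20, Bst2 and Rsad2 overlapped between genotypes. Rtp4 had 2834 ± 331 in CTLA-4 KO and 3254 ± 406 in WT, a difference of −0.20. Isg20, an RNA exonuclease, had 2547 ± 220 in CTLA-4 KO and 2542 ± 284 in WT, and Cmpk2, a mitochondrial nucleotide kinase, had 574 ± 45 in CTLA-4 KO and 587 ± 75.5 in WT. Their 95% intervals were −0.26 to 0.27 and −0.34 to 0.29. Bst2, which encodes the virion tether tetherin, and Rsad2, which encodes the radical enzyme viperin, had differences of 0.17 and 0.19. Mx1, a GTPase that blocks influenza virus and is defective in many inbred mouse strains, had 0.032.

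**Figure D2:**
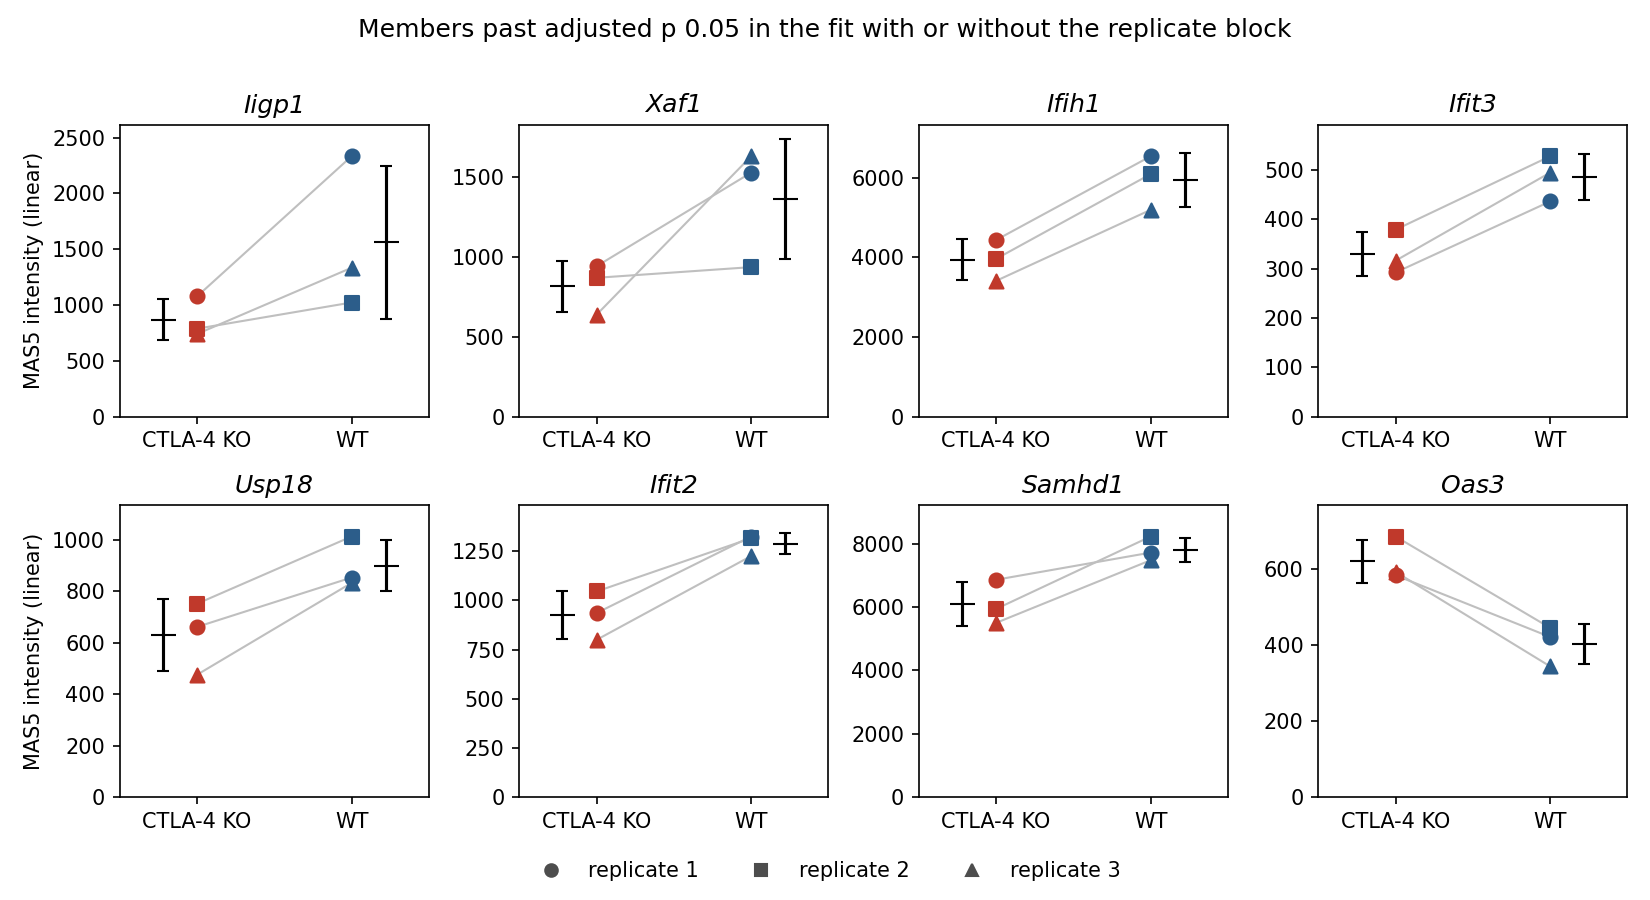
Linear MAS5 intensity on each of the 6 arrays for the 8 members past an adjusted p of 0.05 with or without the replicate block, CTLA-4 KO left and WT right, with grey lines joining arrays of the same replicate number and black marks for the mean ± SD of 3 arrays. In each of the 7 lower members every grey line runs upward to WT, and in Oas3 every line runs downward.

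The immunity-related GTPases, which interferon gamma induces and which act at the vacuoles of intracellular pathogens, all had negative differences, and that of Iigp1 was much larger than the others. Iigp1 had 1076, 788 and 740 in CTLA-4 KO cells, against 2332, 1022 and 1334 in WT cells. WT replicate 1 stood far above the other arrays, and WT replicate 2 lay below CTLA-4 KO replicate 1, so the groups overlapped although every pair was lower (−1.10, −0.37 and −0.84). The log2 difference of −0.77 was the most negative of all members (limma adjusted p = 0.188; 0.00388 once replicate number was a block). Without WT replicate 1 it was −0.44 (limma adjusted p = 0.355, within a range of 0.00388 to 0.603 over all alternatives). Irgm1, Igtp and Ifi47 lie on chromosome 11. Ifi47 had 7692, 7843 and 7565 in CTLA-4 KO cells, against 8227, 8257 and 7579 in WT cells, an interval of −0.24 to 0.12 on the log2 scale. Igtp had a difference of −0.087 (interval −0.29 to 0.11) and Irgm1 of −0.047 (−0.31 to 0.22). Under median centring all 3 had a difference above 0, of 0.0015 for Igtp, 0.031 for Ifi47 and 0.042 for Irgm1. All 3 were still below the median of all genes under that centring, 0.091.

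The transcription factors of the response differed little, and none of the 3 passed the limma test with or without the block, or an unadjusted p of 0.05. Irf1, a factor induced by interferon gamma, had 3578, 3608 and 3745 in CTLA-4 KO cells, against 3936, 4237 and 4093 in WT cells. The groups did not overlap, yet the log2 difference was only −0.17 ± 0.09 (limma adjusted p = 0.414; 0.268 once replicate number was a block). Irf7, which amplifies type I interferon production, had 1137, 1094 and 943 in CTLA-4 KO and 1398, 1022 and 1029 in WT. Irf9, the DNA-binding partner of STAT2, had 2377, 2284 and 2112 in CTLA-4 KO and 2494, 2593 and 2104 in WT. Irf7 and Irf9 overlapped, with differences of −0.11 and −0.082.

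Among regulators and other induced genes, Usp18 and Xaf1 were lower with the block only. Usp18 encodes a protease that removes ISG15 from proteins and blocks IFNAR signalling. It had 661, 752 and 475 in CTLA-4 KO cells, against 854, 1013 and 833 in WT cells, with no overlap. The log2 difference was −0.52 ± 0.17 (limma adjusted p = 0.181; 0.0185 once replicate number was a block). Xaf1, an antagonist of the apoptosis inhibitor XIAP, had 941, 869 and 637 in CTLA-4 KO cells, against 1526, 935 and 1629 in WT cells. WT replicate 2 was below CTLA-4 KO replicate 1, and the difference was −0.71 ± 0.21 (limma adjusted p = 0.142; 0.0255 once replicate number was a block), with −0.69, −0.10 and −1.33 in pairs 1, 2 and 3.

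Trim30a, which restrains NF-kB signalling, had 6553, 6743 and 7442 in CTLA-4 KO cells, against 7911, 8468 and 8398 in WT cells, with no overlap and a difference of −0.26 (limma adjusted p = 0.192, and 0.0799 with the block). Parp9 and Dtx3l, which form a complex that modifies histones and viral proteins, had differences of −0.095 and 0.018. Parp14, a related ADP-ribosyltransferase, had −0.14. Ifi35, the brightest member of this group, had 10789, 10115 and 9887 in CTLA-4 KO and 9375, 10647 and 7809 in WT, with overlap and a difference of 0.16. Ifi27l2a had 6924 ± 563 in CTLA-4 KO and 7717 ± 1061 in WT, a difference of −0.15.

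By role, the median log2 difference was −0.11 for 3 transcription factors, −0.15 for 4 nucleic acid sensors, −0.20 for 15 antiviral effectors, −0.073 for 4 immunity-related GTPases and −0.15 for 8 regulators and other induced genes. The effectors ranged from −0.55 to 0.61, the sensors from −0.59 to −0.11 and the transcription factors from −0.17 to −0.082. The range within effectors was therefore wider than any gap between the medians, and the roles are not shown to differ. In pairs 1, 2 and 3 the effector median was −0.17, −0.15 and −0.13, and the sensor median was −0.38, −0.16 and −0.13.

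Arrays of the same genotype were not alike for these genes. Of the 34 members, 15 were highest on WT replicate 2 and 11 on WT replicate 1, while 2 were highest on WT replicate 3. The lowest value was on CTLA-4 KO replicate 3 for 15 members and on WT replicate 3 for 7. The median deviation from the mean of the 6 arrays was −0.091, −0.023 and −0.14 in CTLA-4 KO replicates 1, 2 and 3 and 0.11, 0.15 and −0.027 in WT replicates 1, 2 and 3. WT replicate 3 thus lay at the level of CTLA-4 KO replicate 2, while the median of the members' own differences was −0.20, −0.13 and −0.12 in pairs 1, 2 and 3. The WT arrays with the highest levels, replicates 1 and 2, had Actb ratios of 0.418 and 0.41, and WT replicate 3 had 0.584, within the range of CTLA-4 KO. CTLA-4 KO replicate 2, with the highest level of its group, had the highest ratio of all, 0.691. With that ratio as a term, the member median was −0.14, 25 of 34 members were negative and none was called.

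**Figure D3:**
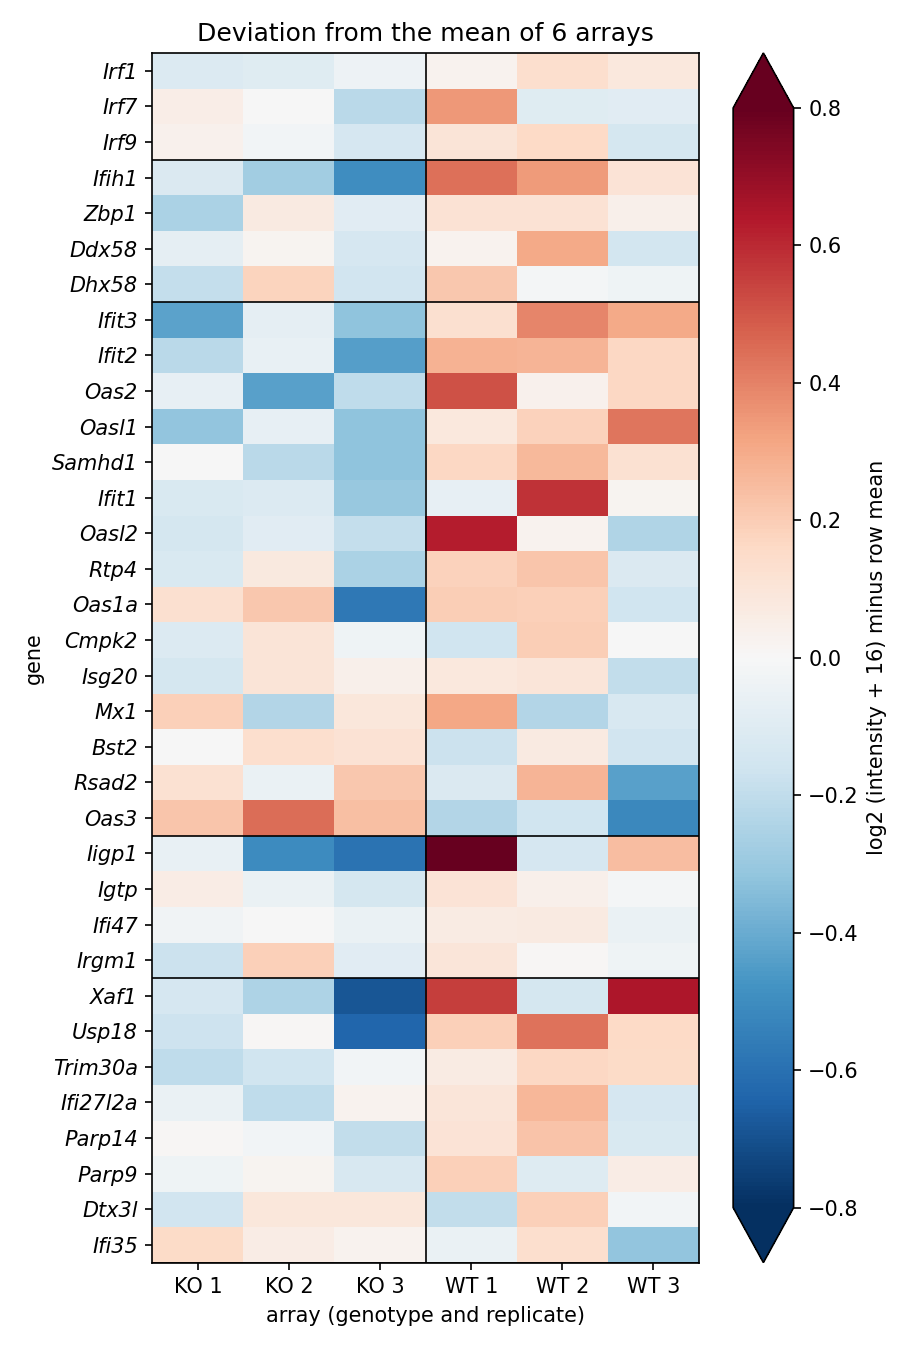
Deviation of each member's log2(intensity + 16) from its mean over the 6 arrays, with CTLA-4 KO arrays left of WT arrays and black lines between roles (from the top: transcription factors, nucleic acid sensors, antiviral effectors, immunity-related GTPases, regulators and other induced genes). WT replicates 1 and 2 hold the highest value for 26 of 34 members, and Oas3 is the member with red in all CTLA-4 KO columns and blue in all WT columns.

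Fewer cells of a type and less RNA per cell cannot be told apart in these bulk samples, and dendritic cells and macrophages also express many of these genes. The summed intensity of 6 dendritic cell markers, of which Bst2 is also a member, was 375 to 401 in CTLA-4 KO and 385 to 471 in WT. Bst2 was the brightest of the 6, with 196, 217 and 213 in CTLA-4 KO and 172, 206 and 175 in WT. It therefore weighs heavily in that sum and can mask the other markers. Among those, Itgax had 60.7, 45.8 and 54.2 in CTLA-4 KO and 71.8, 66 and 74.3 in WT, with no overlap and a log2 difference of −0.32. Zbtb46 had 50.4, 62.6 and 56.7 in CTLA-4 KO and 70.8, 93.5 and 106 in WT, with no overlap and a difference of −0.54 (limma adjusted p = 0.316), while Siglech and Bst2 had differences of 0.33 and 0.17. Flt3 and Xcr1 were below the intensity floor of 37.8. Xcr1 had 9.43, 5.44 and 7.16 in CTLA-4 KO and 19.6, 27.1 and 29.9 in WT, and Flt3 overlapped. The sum of 6 macrophage and monocyte markers was 370 to 539 in CTLA-4 KO and 418 to 451 in WT, that of 5 B cell markers 122 to 237 in CTLA-4 KO and 213 to 329 in WT, and that of 4 NK cell markers 349 to 396 in CTLA-4 KO and 146 to 404 in WT. The NK cell marker Klrd1 had 276, 273 and 281 in CTLA-4 KO and 66.0, 212 and 261 in WT, with no overlap. Its difference was 0.76 (limma adjusted p = 0.36), and Eomes overlapped with a difference of 0.28. The sum of 4 neutrophil markers was 97.1 to 144 in CTLA-4 KO and 74.6 to 126 in WT. The sum of 2 CD8 markers was 315 to 513 in CTLA-4 KO and 262 to 422 in WT. Of the 17 genes of these lists that could be tested, none passed the limma test with or without the block. At an unadjusted p of 0.05, 1 was lower and 1 higher, beside 7.11% and 9.43% of all tested genes. Zbtb46 was the lower one, in the direction of most members, and Cd68, of the macrophage and monocyte list, was the higher one. Cd68 had 133, 125 and 138 in CTLA-4 KO and 93.3, 98.7 and 57.3 in WT. Its groups did not overlap, and its difference was 0.60 (limma adjusted p = 0.244). The other tested markers of that list, Lyz2, Adgre1, Csf1r and Fcgr1, went the other way, each with overlap. Their differences were −0.80, −0.28, −0.10 and −0.078. The part of these cell types in the results was not tested. Of the 9 T cell markers none passed without the block. With it Cd3g and Cd28 fell and Lat rose, beside 3.45% of all tested genes that fell and 5.46% that rose. The differences of Cd3g, Cd28 and Lat were −0.35, −0.34 and 0.32, each without overlap between genotypes.

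Where a gene had several kept probe sets, they did not always tell the same story. Of 12 such genes, 6 had probe sets with differences of both signs. The 2 probe sets of Iigp1 had differences of −0.77 and −0.71, both called with the block. Of the 5 probe sets of Samhd1 all had negative differences, from −0.63 to −0.046, and 2 did not overlap between genotypes. Zbp1 had a brighter probe set at −0.18 and a dimmer one at 0.36, whose values of 322, 371 and 306 in CTLA-4 KO lay above 233, 274 and 259 in WT. Trim30a had the one described at −0.26 and a dimmer one at 0.12. Xaf1 had a far dimmer second probe set, with a mean of 84.2 in CTLA-4 KO and 77.9 in WT and a difference of 0.09. The signs for Xaf1, Zbp1, Trim30a, Ddx58, Dhx58 and Cmpk2 therefore depend on the probe set chosen. Those of Iigp1, Samhd1 and Parp14 were negative on every kept probe set, and those of Rsad2, Ifi35 and Dtx3l were positive on every one. A dim probe set of Rsad2 had 67.0, 60.9 and 84.0 in CTLA-4 KO, above 57.9, 40.8 and 30.9 in WT. Its difference was 0.57 (limma adjusted p = 0.357). Ifih1, Ifit2, Ifit3, Oas3 and Usp18 were each read by a single probe set.

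**Figure D4:**
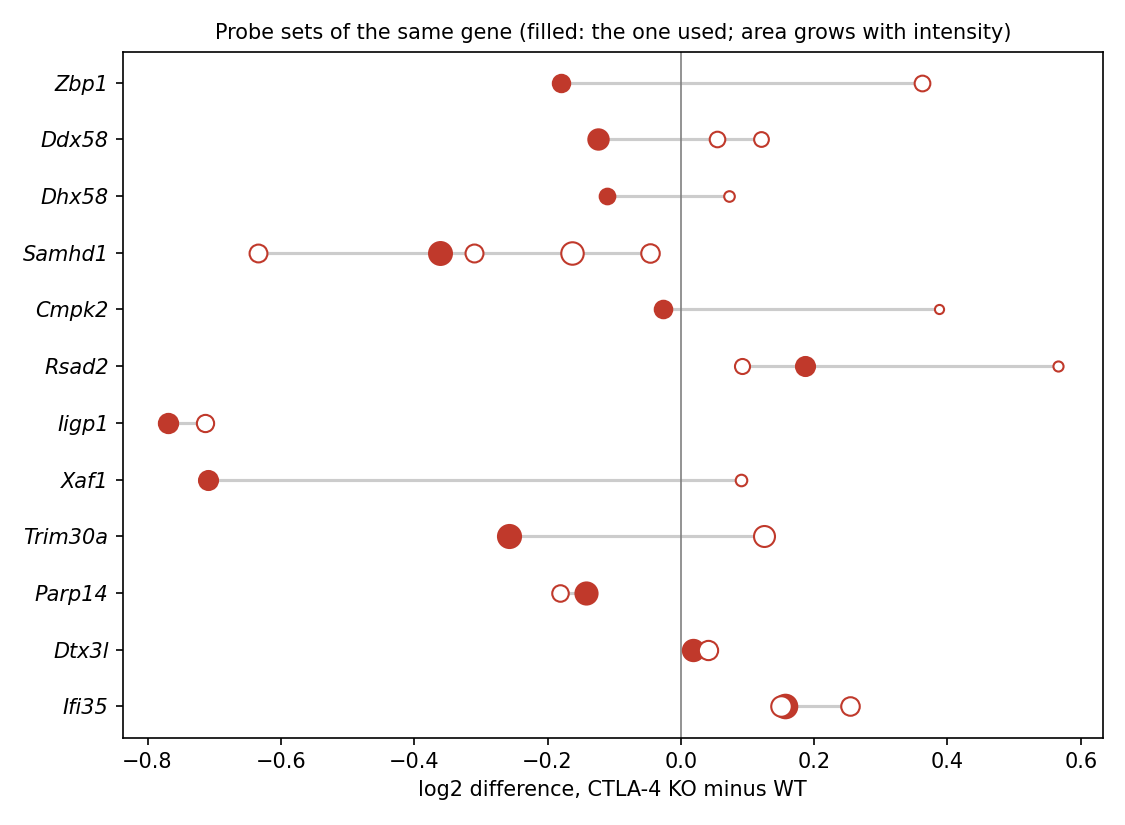
Log2 difference (CTLA-4 KO minus WT) of every kept probe set for the 12 members with several, filled for the one that represents the gene, with larger points for brighter probe sets. The points lie on both sides of 0 for 6 of the genes, among them Zbp1 and Trim30a. They lie on the negative side for Iigp1, Samhd1 and Parp14, and on the positive side for Rsad2, Ifi35 and Dtx3l.

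The pathway above these genes was followed in 27 genes of ligands, receptors, kinases, adaptors and inhibitors, of which 23 could be tested. None passed the limma test without the block, where 2 were lower and 3 higher at an unadjusted p of 0.05, beside 7.11% and 9.43% of all tested genes. With the block 2 rose and none fell, beside 5.46% and 3.45% of genes, so these counts were near the background. Their median log2 difference was 0.019, with 10 negative and 13 positive. Of the ligands, Ifng had 222, 192 and 171 in CTLA-4 KO and 216, 196 and 152 in WT (difference 0.056, 95% interval −0.37 to 0.48), Ifnb1 was dim in both and Ifna4 was below the floor. Among the receptors, Ifnar1 had 943, 869 and 915 in CTLA-4 KO cells, against 1052, 1250 and 1188 in WT cells, with no overlap and a difference of −0.35 (limma adjusted p = 0.196, and 0.0677 with the block). Ifnar2 had 1149, 1836 and 2044 in CTLA-4 KO and 1012, 1622 and 1575 in WT, higher in each pair but overlapping. The subunits of the type I receptor therefore had differences of opposite sign, and neither passed the test.

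Of the signalling kinases, Jak1 had 6722, 7192 and 6690 in CTLA-4 KO cells, against 7320, 9374 and 7485 in WT cells (difference −0.22, limma adjusted p = 0.357), and Jak2 had 7430, 7771 and 7452 in CTLA-4 KO and 7078, 8186 and 7139 in WT, with a difference of 0.019. Stat2 had −0.24, with overlap. Of the adaptors, Myd88, which carries Toll-like receptor signals, was the only one called with the block: it had 3387, 3301 and 2862 in CTLA-4 KO cells, against 2524, 2659 and 2462 in WT cells, with no overlap (difference 0.32, limma adjusted p = 0.176; 0.0463 once replicate number was a block). Mavs, the adaptor through which MDA5 and RIG-I signal, had 1482, 1341 and 1454 in CTLA-4 KO cells, against 1338, 1090 and 915 in WT cells, with no overlap and a difference of 0.37 (limma adjusted p = 0.255, and 0.0674 with the block). Tbk1, the kinase that activates IRF3 downstream of MAVS and the brightest adaptor probe set, had 6833, 7372 and 6893 in CTLA-4 KO and 7456, 6660 and 7599 in WT, with overlap. Ifih1 and Mavs thus had differences of opposite sign, of which Ifih1 alone passed.

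Of the inhibitors, Socs3 was called with the block. It had 1399, 1078 and 1482 in CTLA-4 KO and 505, 846 and 1202 in WT, higher in each pair and overlapping (difference 0.69, limma adjusted p = 0.231; 0.0325 once replicate number was a block). Ptpn6, the brightest inhibitor probe set, had 7926, 7035 and 6210 in CTLA-4 KO and 9136, 8844 and 6901 in WT, a difference of −0.23. Socs1, the inhibitor that interferon gamma induces most directly, was dim, with 84.6 to 108 in CTLA-4 KO and 77.7 to 95.9 in WT. Socs1 and Ptpn6 did not pass in either fit.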

How the data were processed

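The authors deposited 1 table of linear intensity values for 45101 probe sets on 6 arrays, made with Partek and MAS5 per the submitters' processing notes, from 2 µg of total RNA per array per the labels' protocols. Background correction and probe summary came before deposit, and the sources used here do not say how dim signals were handled. No other per-sample column was present.

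Values were turned into log2(intensity + 16), without 64 control probe sets. Probe sets with a mean at or above the 40th percentile (37.8) were kept, 27022 in all, and a model per probe set was fitted in R 4.3.3 with limma 3.58.1 (lmFit, then eBayes using an intensity trend, both directions, Benjamini-Hochberg over all kept probe sets, threshold 0.05). The fit called 345 probe sets (217 higher, 128 lower in CTLA-4 KO) and was tested on simulated data. No count test applies to arrays, and the number of arrays limits precision.

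Gene names came from the array annotation (34945 probe sets with 1 gene, 932 with several, 9160 with none), updated to the RefSeq symbols of GRCm38.p6. Groups came from the titles. Deviations from group means correlated at 0.37, 0.234 and 0.25 for arrays of replicates 1, 2 and 3, each over 0.1. The numbers, which come from the titles, were therefore taken to pair the arrays. Correlations between arrays of unlike numbers were not computed, so these values do not show that the arrays were paired. All members are described. Values on every array go to members called in either fit, to the brightest of each role and to the largest differences, and the same rule holds for pathway genes, while further genes given in full were picked once values were known. The members, lists, rules and tests were chosen with earlier results of these data known.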

Additional observations from a re-analysis of the deposited data

How the results depend on the processing

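Ctla4 passed under all 20 alternatives, with log2 differences of −2.64 to −2.53 when 1 array was left out. The 345 changed probe sets became 111 with no filter on dim probe sets, 21 with no intensity trend, 533 with array weights, 2337 with the replicate block (1041 higher and 1296 lower, so 44.5% higher against 62.9%), 21 with the Actb ratio as a term, 47 in pairs 1 and 3 alone, and 44 to 221 with 1 array left out. The count of lower members, 1, was 7 with the replicate block, and 0 with no dimness filter, pseudocount 1, median centring, no intensity trend, the Actb ratio, pairs 1 and 3 alone, and whichever array was left out (0 to 0). The cause was not tested, though the last 2 hold fewer arrays. The count of higher members, 0, was 1 (Oas3) with the replicate block and 1 when probe sets of a gene were averaged, and the count of pathway genes, 0, was 2 and 1 under the same alternatives. With the replicate block, no other call among the members changed.

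The median over members, −0.15, was −0.057 under median centring (0.091 over all genes), −0.20 in pairs 1 and 3, −0.10 with the mean of probe sets and −0.22 to −0.083 with 1 array left out. The transcription factor median was −0.019 under centring, −0.058 with the Actb ratio and −0.17 to −0.035 with 1 array left out. The sensor median was −0.0013 with the mean of probe sets and −0.24 to −0.11 with 1 array left out. The effector median was −0.11 under centring, −0.16 with array weights, −0.15 with the Actb and −0.18 with the Gapdh ratio, −0.22 in pairs 1 and 3, and −0.30 to −0.11 with 1 array left out. The GTPase median was 0.016 under centring, −0.13 after quantile normalization and −0.12 to −0.042 with 1 array left out. The median of the remaining role was −0.057, −0.19 and −0.095 under centring, quantile normalization and the Actb ratio, and −0.24 to −0.12 with 1 array left out.

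The sign changed in 31 of 680 values, all of members called in no fit, and 21 of 34 members kept their sign throughout. Under median centring, where the median of all genes was 0.091, Irf9 had 0.0072, Cmpk2 0.062, Irgm1 0.042, Igtp 0.0015 and Ifi47 0.031. With the Actb ratio Irf9 had 0.027 and Ifi27l2a 0.076, and the last had 0.0078 in pairs 1 and 3, where Cmpk2 also had 0.0078. With the mean of probe sets Ddx58 had 0.017, Zbp1 0.091 and Cmpk2 0.18. Array weights gave −0.0064 for Mx1 and 0.0093 for Irgm1, and quantile normalization −0.0079 for Isg20 and 0.0084 for Cmpk2. With 1 array left out Irf7 spanned −0.18 to 0.039, Mx1 −0.077 to 0.20, Oas1a −0.30 to 0.099, Isg20 −0.090 to 0.076, Cmpk2 −0.11 to 0.066, Irgm1 −0.16 to 0.026 and Dtx3l −0.077 to 0.12. Genes below the intensity floor of 37.8, such as Ifna4, Flt3 and Xcr1, were not tested.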
